A study of Homo sapiens with 8 samples.

Results

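The 55 genes described here code for proteins that copy DNA or carry a cell through mitosis. They were taken by symbol from a list of 29 genes of S phase, from MCM2 to UHRF1, and 26 genes of G2 and mitosis (G2/M), from CCNA2 to MYBL2, and all 55 were found among the 37441 rows of the count table and among the 18203 genes that passed the filter on low counts. RNA was sequenced from 2 lines of non-small cell lung cancer, NCI-H1581 and NCI-H1703, which respond to inhibitors of the fibroblast growth factor receptor (FGFR), and from a variant of each that had become resistant to the FGFR inhibitor CPL304110, named NCI-H1581R and NCI-H1703R. The resistant variants came from culture in CPL304110, which began at 50 nM and rose to 2.5 µM for NCI-H1581R and 5 µM for NCI-H1703R over 4 to 6 months, while the sensitive cells were the starting lines. NCI-H1581 and NCI-H1581R grew in DMEM/F12 medium and NCI-H1703 and NCI-H1703R in RPMI 1640, so line and medium cannot be told apart. Each of the 4 variants has 2 libraries, from dishes harvested 24 h after a change to fresh medium, and neither the labels nor the methods state whether that medium held the inhibitor. Each resistant variant is a single selected population, so the replicates are repeat cultures of it and not separate selections.

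A cell prepares to replicate by loading a ring of MCM proteins on each origin of replication, which the origin recognition complex, CDC6 and CDT1 bring about. CDC45 and the GINS proteins turn the ring into a moving helicase, and polymerases, the sliding clamp PCNA, FEN1 and LIG1 then complete the new strands from nucleotides that ribonucleotide reductase and thymidylate synthase supply. Transcription factors of the E2F family switch on many of these genes at the border of G1 and S. Genes for mitosis, such as those of cyclin B, PLK1 and the spindle motors, come on later in G2, through MYBL2, FOXM1 and promoter elements named CHR and CCAAT box. In RNA from a whole dish, fewer cells in a phase of the cycle and less RNA of a gene per cell cannot be told apart.

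The libraries held 33800389 to 40031710 counts, and the counts of the 55 genes ran from 115 for CCNE2 to 35432 for MCM7 in any library. Levels are given as CPM, the counts of a gene scaled to the size of its library with TMM factors over all 8 libraries. The epithelial markers KRT8, KRT19 and CDH1 lay at 0.27 to 7.27 CPM in all libraries, EPCAM at 0.08 to 15.9 CPM, and KRT14 and INSM1 did not pass the filter, while the mesenchymal marker VIM lay at 2634 to 6711 CPM. The mesenchymal markers CDH2 and FN1 were uneven, CDH2 at 48.6 and 50.2 CPM in NCI-H1703 and at most 3.53 CPM elsewhere, FN1 at 745 and 919 CPM in NCI-H1581R and at most 10.2 CPM elsewhere, and the neuroendocrine marker SYP lay at 8.01 to 102 CPM. Of the other neuroendocrine markers, CHGA lay at 4.62 CPM or less and INSM1 was the one filtered out. The squamous marker TP63 and the lung adenocarcinoma marker NKX2-1 were at 5.79 to 59.5 CPM in the NCI-H1581 and NCI-H1581R libraries. In the NCI-H1703 and NCI-H1703R libraries they were at 0.11 to 0.72 CPM. The squamous marker KRT5 lay at 1.17 CPM or less in all libraries, and KRT14, also squamous, was filtered out. The lung adenocarcinoma markers NAPSA and SFTPB lay at no more than 0.71 and 2.3 CPM. The blood marker PTPRC and the endothelial marker PECAM1 were at 0.45 CPM or less. The lines thus carried few of the epithelial transcripts that the label of lung carcinoma would lead one to look for, and KRT18 differed among the variants, with 64.3 and 65.4 CPM in NCI-H1703 and at most 2.88 CPM in every other library.

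The promoters of the 2 sets of genes differ in their letters, which the choice of genes did not use. Of the 55 genes, 46 had an entry in the RefSeq promoter table for GRCh38.p14 (26 of S phase and 20 of G2/M), which gives 250 bases before the start of transcription and 50 after it. MCM4, MCM5, CCNE2, AURKA, FOXM1, TTK, UBE2C, TPX2 and BIRC5 had none. The windows were searched on both strands for 4 E2F words, which are TTCCCGC and its variants TTCGCGC or else TTGCCGC and also TTGGCGC, for the CHR words TTTGAA and (as a variant) TTCGAA, and for the box CCAAT. E2F words can overlap each other, and ATTGG followed by CGC holds both a CCAAT box and an E2F word. At least 1 E2F word stood in 20 of 26 S phase promoters (76.9%), in 3 of 20 G2/M promoters (15.0%) and in 20.1% of the 12291 promoters of genes tested. At least 1 CHR word stood in 2 of 26 S phase promoters (7.7%), in 14 of 20 G2/M promoters (70.0%) and in 11.1% of the promoters of genes tested. The CCAAT box stood in 65.4%, 85.0% and 36.3% of the same sets. In a wider list of the same pathways, used again near the end, the sets lay closer for E2F words, with 61.8% of 34 S phase and 40.4% of 47 G2/M promoters, while CHR words stood in 5.9% and 80.9%. The promoters printed here are those of genes whose RNA is followed in the results, with 200 bases before the start and 20 from it, read 5′ to 3′ on the gene's own strand, and capitals mark every E2F word, CHR word and CCAAT box found on either strand. The first 4 belong to S phase genes that fell in NCI-H1581R.
CDT1, chr16:88803589-88803808, plus strand: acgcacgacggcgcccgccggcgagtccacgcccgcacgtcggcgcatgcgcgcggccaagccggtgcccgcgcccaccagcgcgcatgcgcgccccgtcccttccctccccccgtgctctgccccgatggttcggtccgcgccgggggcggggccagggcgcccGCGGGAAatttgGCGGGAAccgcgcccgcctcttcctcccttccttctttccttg
GINS2, chr16:85688935-85689154, minus strand: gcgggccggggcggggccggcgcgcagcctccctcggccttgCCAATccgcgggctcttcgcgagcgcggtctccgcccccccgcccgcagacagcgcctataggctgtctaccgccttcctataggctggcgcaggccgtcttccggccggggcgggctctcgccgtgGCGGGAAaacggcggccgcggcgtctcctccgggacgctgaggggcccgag
RRM2, chr2:10122539-10122758, plus strand: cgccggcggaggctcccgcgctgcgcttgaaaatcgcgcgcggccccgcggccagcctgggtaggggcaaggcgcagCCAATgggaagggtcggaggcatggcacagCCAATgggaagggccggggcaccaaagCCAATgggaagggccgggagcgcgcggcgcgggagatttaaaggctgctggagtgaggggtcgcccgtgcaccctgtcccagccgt
TYMS, chr18:657453-657672, plus strand: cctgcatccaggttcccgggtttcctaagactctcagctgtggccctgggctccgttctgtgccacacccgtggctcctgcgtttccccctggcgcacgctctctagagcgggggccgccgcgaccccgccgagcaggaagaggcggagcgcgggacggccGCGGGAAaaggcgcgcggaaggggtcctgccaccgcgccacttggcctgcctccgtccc
The other 5 belong to G2/M genes, of which CCNB1, CDC20 and KIF20A carry results of NCI-H1703R, and CCNB2 and PLK1 show the CHR word close to the start with CCAAT boxes before it.
CCNB1, chr5:69166950-69167169, plus strand: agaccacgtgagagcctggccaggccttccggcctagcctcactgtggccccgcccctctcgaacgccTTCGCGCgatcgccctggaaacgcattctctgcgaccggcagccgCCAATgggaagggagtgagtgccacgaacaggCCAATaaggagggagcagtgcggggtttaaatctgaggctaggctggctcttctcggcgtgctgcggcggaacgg
CCNB2, chr15:59104946-59105165, plus strand: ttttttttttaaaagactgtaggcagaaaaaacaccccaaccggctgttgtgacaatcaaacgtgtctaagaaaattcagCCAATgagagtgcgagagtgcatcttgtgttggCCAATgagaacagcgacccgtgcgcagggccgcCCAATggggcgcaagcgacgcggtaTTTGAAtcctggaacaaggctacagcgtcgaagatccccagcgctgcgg
PLK1, chr16:23678689-23678908, plus strand: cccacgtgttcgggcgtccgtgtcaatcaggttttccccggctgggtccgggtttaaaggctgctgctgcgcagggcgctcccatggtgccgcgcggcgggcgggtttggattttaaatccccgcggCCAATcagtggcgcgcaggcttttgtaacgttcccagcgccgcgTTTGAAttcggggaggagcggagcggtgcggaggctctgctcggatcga
CDC20, chr1:43358781-43359000, plus strand: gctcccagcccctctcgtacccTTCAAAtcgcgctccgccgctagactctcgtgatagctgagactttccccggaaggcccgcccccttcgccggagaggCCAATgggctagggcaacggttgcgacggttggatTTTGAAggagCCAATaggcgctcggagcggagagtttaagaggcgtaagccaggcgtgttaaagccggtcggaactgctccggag
KIF20A, chr5:138178912-138179131, plus strand: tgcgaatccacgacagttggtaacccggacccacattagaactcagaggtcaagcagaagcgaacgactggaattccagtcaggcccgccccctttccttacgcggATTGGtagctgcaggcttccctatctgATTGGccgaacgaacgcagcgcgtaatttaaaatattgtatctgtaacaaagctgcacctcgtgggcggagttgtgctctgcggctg
The printed part of CDT1 has 2 E2F words and that of GINS2 and of TYMS 1 each, while that of RRM2 has 3 CCAAT boxes and no E2F word. CCNB2 and PLK1 each have 1 CHR word, CDC20 has 2, and the windows of CCNB1 and KIF20A have none. A match says that the letters are present, and its absence only that they are not in this window.

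**Figure D1:**
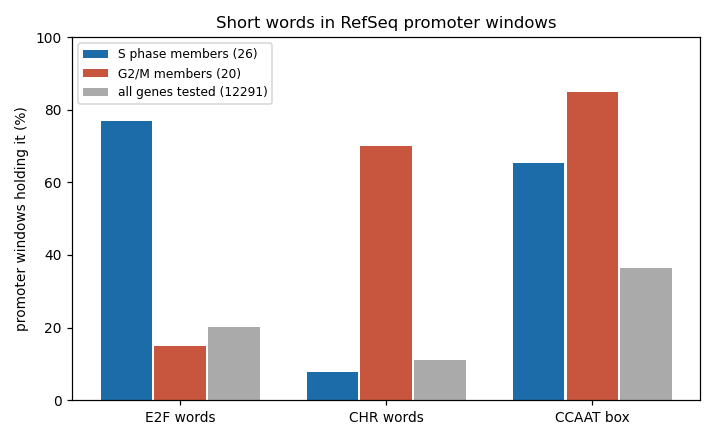
Share of promoter windows (percent, 0 to 100) with at least 1 E2F word, CHR word or CCAAT box among 26 S phase genes (blue), 20 G2/M genes (red) and the 12291 genes tested that have an entry (grey). E2F words stand in 76.9% of the S phase windows and CHR words in 70.0% of the G2/M windows.

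The change with resistance in NCI-H1581 asked whether cells that had come to grow under the inhibitor differ from their parents in these genes. In NCI-H1581R, 8 of the 29 S phase genes fell and 1 of the 26 G2/M genes fell in the quasi-likelihood test of edgeR (p adjusted by Benjamini-Hochberg over all genes tested and under 0.1). Of all genes tested, 15.1% were called, 7.44% as lower and 7.63% as higher. No gene of either set rose in this test. At an unadjusted p under 0.05 there were 12 S phase genes and 1 G2/M gene, where 24.3% of all genes passed, and DESeq2 called 12 S phase genes and 1 G2/M gene lower and 0 higher, against 9.17% and 8.53% of all genes. The median log2 fold change was -0.37 for the S phase genes and 0.08 for the G2/M genes, beside 0.04 over all genes tested. The G2/M median had the other sign, -0.09, with offsets for GC content and transcript length. Both NCI-H1581R libraries lay below both NCI-H1581 libraries for 19 S phase genes and 4 G2/M genes, against 23.9% of all genes tested, and above them for 3 and 5, against 26.7%. The calls depend on single libraries: without replicate 1 or replicate 2 of NCI-H1581 none of the 55 was called, without replicate 1 of NCI-H1581R 22 were, and without its replicate 2 17 were. The share of all genes called went the same way, with 6.64% and 6.46% without the NCI-H1581 replicates and 29.7% and 23.0% without those of NCI-H1581R. Not all of these calls were falls: POLE and KIF20A were among the genes called higher without replicate 1 of NCI-H1581R, and BIRC5 was without its replicate 2. The p-values measure the spread between repeat cultures of 1 population.

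Origin licensing held 3 of the 8 S phase calls, and all 9 of its genes had log2 fold changes below 0, from -0.77 to -0.09. CDT1, which brings the MCM ring to origins, had 144 and 122 CPM in the NCI-H1581 replicates and 74.8 and 79.7 CPM in the NCI-H1581R replicates. Its 2 sensitive libraries lay well above both resistant ones, with a log2 fold change of -0.77 (SE 0.17, adjusted p = 0.033). MCM3, a subunit of the ring, had 317 and 279 CPM in NCI-H1581 and 190 and 196 CPM in NCI-H1581R, a log2 fold change of -0.62 (SE 0.16, adjusted p = 0.0669). MCM6, another subunit, had 330 and 313 CPM against 220 and 194 CPM, a log2 fold change of -0.63 (SE 0.17, adjusted p = 0.0662). For both subunits the groups did not overlap. The other MCM subunits did not pass the test, although MCM2, MCM5 and MCM7 also had both resistant libraries below both sensitive ones, with log2 fold changes of -0.44, -0.46 and -0.41. MCM4 overlapped between the groups, with 32.1 and 19.6 CPM in NCI-H1581 and 17.6 and 22.2 CPM in NCI-H1581R.

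Among the 4 genes that activate the helicase, only GINS2 was called. GINS2 is a subunit of the GINS complex, which joins CDC45 and the MCM ring. It had 93.0 and 88.6 CPM in NCI-H1581 and 54.0 and 36.5 CPM in NCI-H1581R. This was the largest fall among the S phase genes called, to 0.501 times the sensitive level (log2 fold change -0.996, SE 0.22, adjusted p = 0.0353). GINS1, its partner in the complex, had 103 and 118 CPM in NCI-H1581 and 109 and 86.7 CPM in NCI-H1581R, so its groups overlapped. MCM10 and CDC45 overlapped as well, with log2 fold changes of 0.01 and -0.12.

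At the fork, 2 of 7 genes fell. PCNA, the clamp that holds polymerases on DNA, had 422 and 408 CPM in NCI-H1581 and 292 and 249 CPM in NCI-H1581R, a log2 fold change of -0.61 (SE 0.17, adjusted p = 0.0817). FEN1, which trims the flaps of Okazaki fragments, had 170 and 157 CPM against 112 and 104 CPM, a log2 fold change of -0.59 (SE 0.16, adjusted p = 0.0683). Neither gene's groups overlapped. The polymerase genes POLA1 and POLE had log2 fold changes of -0.03 and 0.32, and the clamp loader genes RFC3 and RFC4 of -0.11 and 0.14, none past the test. LIG1, which seals the fragments, had a log2 fold change of -0.29 (adjusted p = 0.403).

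Nucleotide supply held 2 calls among 4 genes, and all 4 had both resistant libraries below both sensitive ones. RRM2, the small subunit of ribonucleotide reductase, had 198 and 234 CPM in NCI-H1581 and 132 and 85.5 CPM in NCI-H1581R. It reached 0.506 times the sensitive level, although its resistant replicates were far apart (log2 fold change -0.98, SE 0.24, adjusted p = 0.0534). TYMS, the thymidylate synthase, had 372 and 350 CPM against 251 and 192 CPM, a log2 fold change of -0.69 (SE 0.19, adjusted p = 0.0752). RRM1, the large subunit of the reductase, had a log2 fold change of -0.46 (adjusted p = 0.15), and TK1, the thymidine kinase of the salvage pathway, of -0.37 (adjusted p = 0.392).

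None of the 5 genes grouped here as G1/S control, UHRF1 among them, was called in NCI-H1581R. CCNE2, a cyclin E, had 6.02 and 5.84 CPM in NCI-H1581 and 3.48 and 2.92 CPM in NCI-H1581R, which did not overlap but missed the threshold (log2 fold change -0.88, SE 0.28, adjusted p = 0.113). E2F1 had a log2 fold change of 0.21 and E2F2 of -0.45. UHRF1, which reads methylation on freshly copied DNA, could not be judged, with 28.1 and 74.8 CPM in the 2 replicates of NCI-H1581 and 38.5 and 70.3 CPM in NCI-H1581R.

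The G2/M genes of NCI-H1581R held 1 call. UBE2C, the enzyme that works with the anaphase-promoting complex, had 146 and 138 CPM in NCI-H1581 and 103 and 86.1 CPM in NCI-H1581R, a log2 fold change of -0.57 (SE 0.17, adjusted p = 0.0881). The 9 genes of mitotic entry had log2 fold changes from -0.14 to 0.40, none past the test. Cyclin B1 (CCNB1) had 187 and 194 CPM in NCI-H1581 and 222 and 198 CPM in NCI-H1581R, and its kinase CDK1 had 73.6 and 87.3 CPM against 74.8 and 75.0 CPM. The groups of CDK1 overlapped, while those of CCNB1 did not (adjusted p = 0.639). The 8 genes of spindle motors and microtubules had a median of 0.16, and KIF20A, a kinesin of the late spindle, had 69.9 and 64.2 CPM against 77.1 and 89.7 CPM (adjusted p = 0.299). For 17 of the 26 G2/M genes the resistant and the sensitive libraries overlapped, as they did for 7 of the 29 S phase genes. They overlapped for 8999 of the 18203 genes tested.

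**Figure D2:**
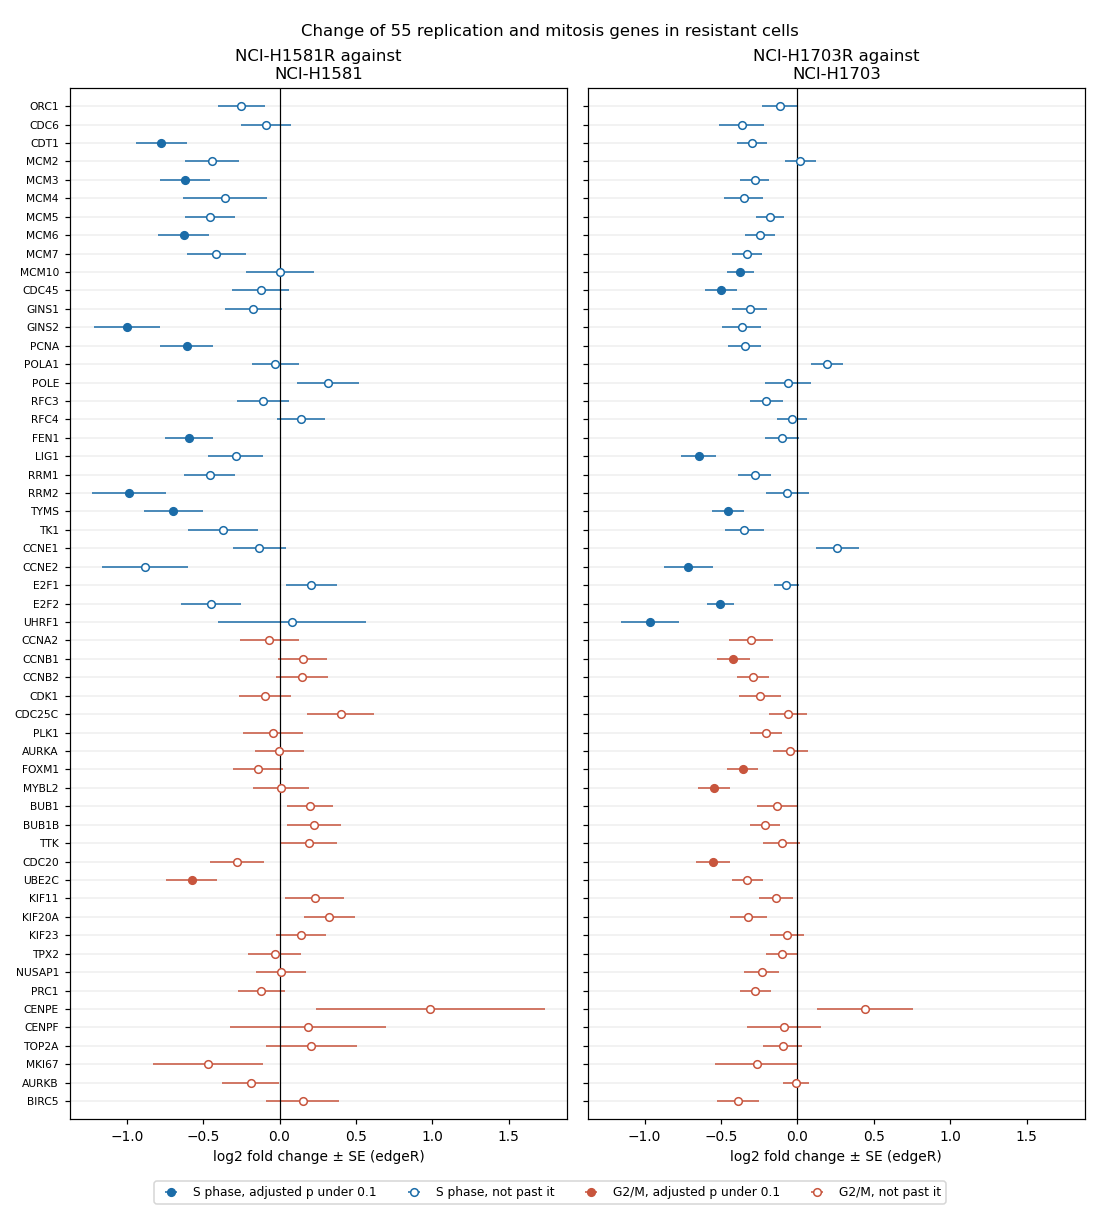
Log2 fold change with its SE (edgeR) of each of the 55 genes in NCI-H1581R against NCI-H1581 (left) and in NCI-H1703R against NCI-H1703 (right), S phase in blue and G2/M in red, with filled points for an adjusted p under 0.1. Of the filled points, 8 blue and 1 red stand on the left and 7 blue and 4 red on the right, all below 0.

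In NCI-H1703R the same question gave calls in both sets. Against NCI-H1703, 7 of the 29 S phase genes and 4 of the 26 G2/M genes fell at an adjusted p under 0.1 (edgeR), and none rose. Of all genes tested, 14.7% were called, 7.67% as lower and 7.06% as higher. At an unadjusted p under 0.05 there were 18 S phase and 9 G2/M genes, where 24.6% of all genes passed, and DESeq2 called 12 and 9 lower and 0 higher, against 8.83% and 7.85% of all genes. The medians were -0.30 for the S phase genes and -0.22 for the G2/M genes, beside 0.00 over all genes tested. The medians of the 2 sets differed by -0.07 here and by -0.45 in NCI-H1581R, a contrast that was not tested. With the replicate number as a block, 19 S phase genes and 14 G2/M genes fell and 2 S phase genes rose (POLA1 and CCNE1), against 16.7% and 18.2% of all genes tested that fell and rose. Both NCI-H1703R libraries lay below both NCI-H1703 libraries for 22 S phase genes and 16 G2/M genes, against 27.5% of all genes tested, and above them for 2 and 0, against 23.8%. Single libraries decide these counts too: without either replicate of NCI-H1703 none of the 55 was called, without replicate 1 of NCI-H1703R 7 were, and without its replicate 2 12 were. Of all genes, 1.88% and 1.66% were called without the NCI-H1703 replicates and 9.24% and 9.83% without those of NCI-H1703R.

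The S phase genes that fell in NCI-H1703R belonged to the group of G1/S control (3 of 5, counting UHRF1), helicase activation (2 of 4), the fork (1 of 7) and nucleotide supply (1 of 4). None belonged to licensing. LIG1 had 102 and 96.2 CPM in NCI-H1703 and 66.8 and 56.8 CPM in NCI-H1703R, a log2 fold change of -0.65 (SE 0.11, adjusted p = 0.0265, and 0.000197 with the replicate block). UHRF1 had 94.3 and 86.2 CPM against 53.7 and 36.7 CPM. It was the largest fall among the members called here, to 0.513 times the sensitive level (log2 fold change -0.96, SE 0.19, adjusted p = 0.0353). CCNE2 had 20.9 CPM in both replicates of NCI-H1703 and 10.7 and 14.3 CPM in NCI-H1703R, a log2 fold change of -0.71 (SE 0.16, adjusted p = 0.0509). E2F2, a factor that activates S phase genes, had 77.1 and 76.9 CPM against 54.6 and 51.7 CPM, a log2 fold change of -0.50 (SE 0.09, adjusted p = 0.0286). All 4 of these had groups that did not overlap. Exons of CCNE2 are covered over 37.0% by INTS8 on the opposite strand, and whether the counting used strand is not stated.

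Both helicase activators CDC45 and MCM10 fell in NCI-H1703R, where neither was called in NCI-H1581R. CDC45 had 77.3 and 85.1 CPM in NCI-H1703 and 53.9 and 58.6 CPM in NCI-H1703R, a log2 fold change of -0.50 (SE 0.10, adjusted p = 0.0413). MCM10 had 77.4 and 79.3 CPM against 57.8 and 60.6 CPM, a log2 fold change of -0.37 (SE 0.09, adjusted p = 0.0591). None of the 9 licensing genes was called without the block, with log2 fold changes from -0.36 to 0.02, and 7 of them were called lower with it: CDC6, CDT1, MCM3, MCM4, MCM5, MCM6 and MCM7. MCM2 overlapped between the groups, with 308 and 323 CPM in NCI-H1703 and 295 and 331 CPM in NCI-H1703R. RRM2 overlapped too, with 170 and 210 CPM against 164 and 191 CPM, while TYMS went from 420 and 457 CPM to 300 and 327 CPM (log2 fold change -0.46, SE 0.10, adjusted p = 0.0527).

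The G2/M calls of NCI-H1703R lay in mitotic entry and exit. CDC20, which activates the anaphase-promoting complex, had 345 and 374 CPM in NCI-H1703 and 223 and 257 CPM in NCI-H1703R, a log2 fold change of -0.55 (SE 0.11, adjusted p = 0.0371). MYBL2, a transcription factor of S phase and mitotic genes, had 357 and 379 CPM against 232 and 262 CPM, a log2 fold change of -0.55 (SE 0.10, adjusted p = 0.0322). CCNB1 had 325 and 364 CPM against 242 and 263 CPM, a log2 fold change of -0.42 (SE 0.11, adjusted p = 0.0738). FOXM1, the factor that drives many mitotic genes, had 753 and 777 CPM against 599 and 569 CPM, a log2 fold change of -0.36 (SE 0.10, adjusted p = 0.0929), and its exons are covered over 15.9% by ITFG2 on the opposite strand. For none of these 4 did the groups overlap. With the replicate block CCNA2, CCNB2, CDK1, PLK1, BUB1B, UBE2C, KIF20A, NUSAP1, PRC1 and BIRC5 joined them, with log2 fold changes in the fit without the block from -0.39 for BIRC5 to -0.20 for PLK1. Other gene models on the same strand, which have no row in the count table, share 81.4% of the exon sequence of NUSAP1 and 57.6% of that of PRC1, so the counts of these genes are uncertain. The motor CENPE had the highest value of the set, 0.44 (SE 0.31, adjusted p = 0.463), on replicates of 35.1 and 17.9 CPM in NCI-H1703R.

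**Figure D3:**
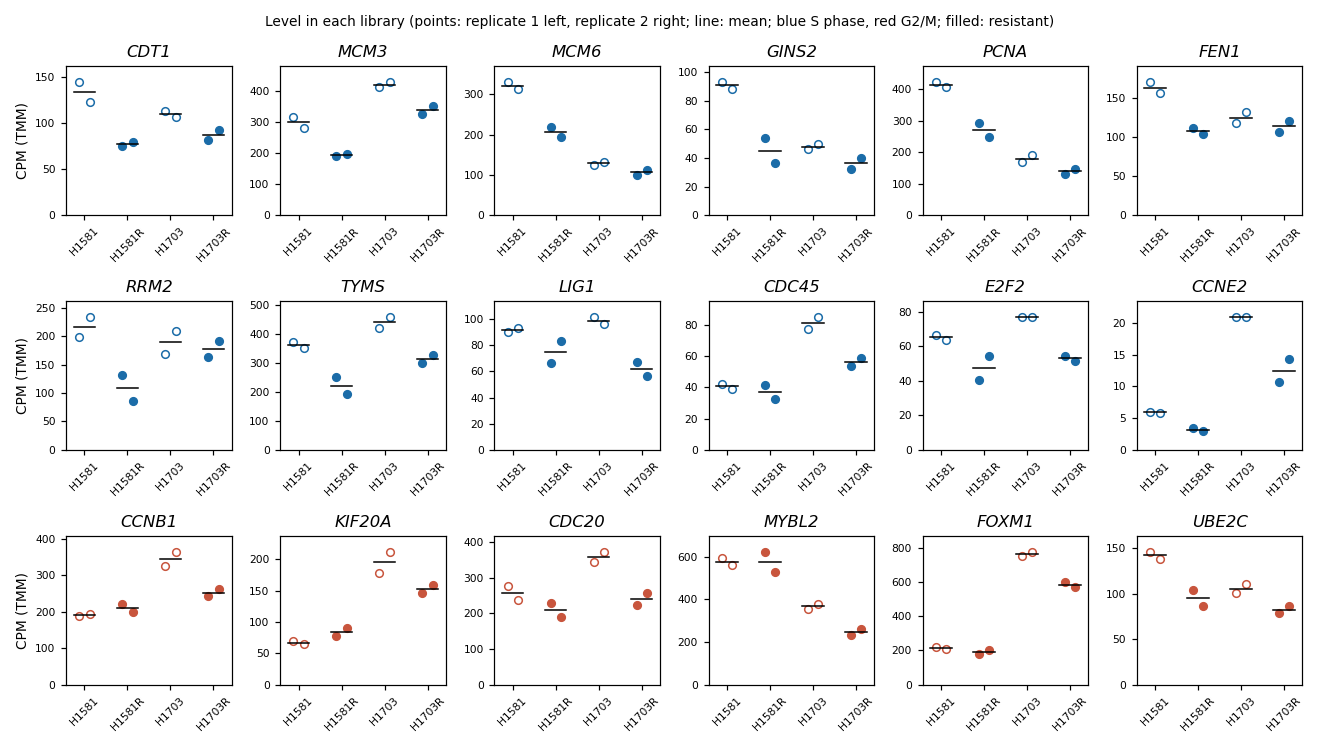
Level in CPM (TMM factors over 8 libraries, axes from 0) of 18 of the genes in each library, open points for sensitive and filled for resistant variants, with a line at the mean of the 2 replicates. CDT1 stands at 144 and 122 CPM in NCI-H1581 and 74.8 and 79.7 CPM in NCI-H1581R, while KIF20A stands at 178 and 212 CPM in NCI-H1703 and 147 and 159 CPM in NCI-H1703R.

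TYMS was the only 1 of the 55 genes called in both lines, where it was lower in the resistant variant. ENOSF1 on the opposite strand covers 39.9% of its exon sequence. With the replicate block CDT1, GINS2, MCM3, MCM6, PCNA, TYMS and UBE2C were called lower in both lines. That fit called 8 S phase genes and 1 G2/M gene lower in NCI-H1581R, where 8.88% of all genes were. In NCI-H1703R it called 19 and 14 lower, where 16.7% of all genes were. With DESeq2 CDT1, MCM3, MCM7, PCNA, TYMS and UBE2C were called lower in both lines. The log2 fold change was below 0 in both lines for 21 of the 29 S phase genes and for 11 of the 26 G2/M genes. It was below 0 in NCI-H1703R and not in NCI-H1581R for 14 G2/M genes and 5 S phase genes, and the reverse held for 3 S phase genes and no G2/M gene. The shares of all genes tested that were called lower, or lay below 0, in both lines are not given here. The counts for both lines therefore have no background to be set against. The comparisons of the 2 lines share no library.

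A change called in 1 line and not in the other is not in itself a difference between the lines, so the difference was tested as an interaction in a fit of all 8 libraries. It was called for 2 of the 26 G2/M genes, KIF20A and CCNB1, and for none of the 29 S phase genes (4 at an unadjusted p under 0.05, which 23.3% of all genes passed, and 4 with DESeq2), where 15.4% of all genes tested were called. DESeq2 called 7 of the 55 (19.5% of all genes), the replicate block 1 (13.9%) and a block within each line 6 (18.9%). KIF20A went from 69.9 and 64.2 to 77.1 and 89.7 CPM with resistance in NCI-H1581 and from 178 and 212 to 147 and 159 CPM in NCI-H1703. The log2 fold change of NCI-H1703R minus that of NCI-H1581R was -0.67 (SE 0.20, adjusted p = 0.0705, and 0.088 with the replicate block). For CCNB1 the estimate was -0.59 (SE 0.18, adjusted p = 0.0729), and it was not called with the replicate block across lines (adjusted p = 0.108) but was called with a block within each line (adjusted p = 0.0576) and with DESeq2 (adjusted p = 0.0292). The next 4 by p were MYBL2 (-0.57, adjusted p = 0.107), RRM2 (0.90, adjusted p = 0.113), FEN1 (0.47, adjusted p = 0.155) and CDT1 (0.46, adjusted p = 0.18), none of them called in this fit. With a block within each line MYBL2, RRM2, FEN1 and UHRF1 were called beside KIF20A and CCNB1, and DESeq2 called MYBL2, RRM2, FEN1, CDT1 and MCM2 beside them. The median of this difference was 0.11 over the S phase genes and -0.29 over the G2/M genes, beside -0.09 over all genes tested. With offsets for GC content and length the median over all genes was 0.04, the S phase median 0.27 and the G2/M median -0.12. None of the 55 was called with RLE scaling, without the filter on low counts, without any 1 replicate of NCI-H1703R or NCI-H1703, or without replicate 1 of NCI-H1581, 1 without its replicate 2, and 12 and 7 were called without replicate 1 and replicate 2 of NCI-H1581R.

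Summed over the 29 S phase genes, the level was 5630 and 5333 CPM in the NCI-H1581 replicates, 4248 and 3833 CPM in NCI-H1581R, 4219 and 4427 CPM in NCI-H1703 and 3413 and 3682 CPM in NCI-H1703R. In both lines the resistant sums lay below the sensitive ones. Over the 26 G2/M genes the sums were 3841 and 3807 CPM in NCI-H1581, 3769 and 3864 CPM in NCI-H1581R, 5118 and 5636 CPM in NCI-H1703 and 4438 and 4354 CPM in NCI-H1703R. The G2/M sums of NCI-H1581 and NCI-H1581R overlapped and those of NCI-H1703 and NCI-H1703R did not. The ratio of the S phase sum to the G2/M sum went from 1.47 and 1.40 in NCI-H1581 to 1.13 and 0.992 in NCI-H1581R, and was 0.824 and 0.785 in NCI-H1703 and 0.769 and 0.846 in NCI-H1703R, where the groups overlapped. The median log2 CPM of the S phase genes minus that of the G2/M genes gave another picture. It compares the middle levels of the sets and not the change of each gene. It was -0.22 and -0.27 in NCI-H1581 and -0.18 and -0.41 in NCI-H1581R, which overlapped, and -0.40 and -0.61 in NCI-H1703 and -0.83 and -0.79 in NCI-H1703R, which did not. A sum weighs the most abundant genes most, and MCM7 alone had 1018 and 885 CPM in NCI-H1581. The log2 ratio of each gene to its mean in the sensitive libraries weighs the genes alike. In the NCI-H1581R replicates its median was -0.37 and -0.35 for the S phase genes and 0.05 and 0.02 for the G2/M genes. In those of NCI-H1703R it was -0.37 and -0.25 for the S phase genes and -0.23 and -0.24 for the G2/M genes.

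**Figure D4:**
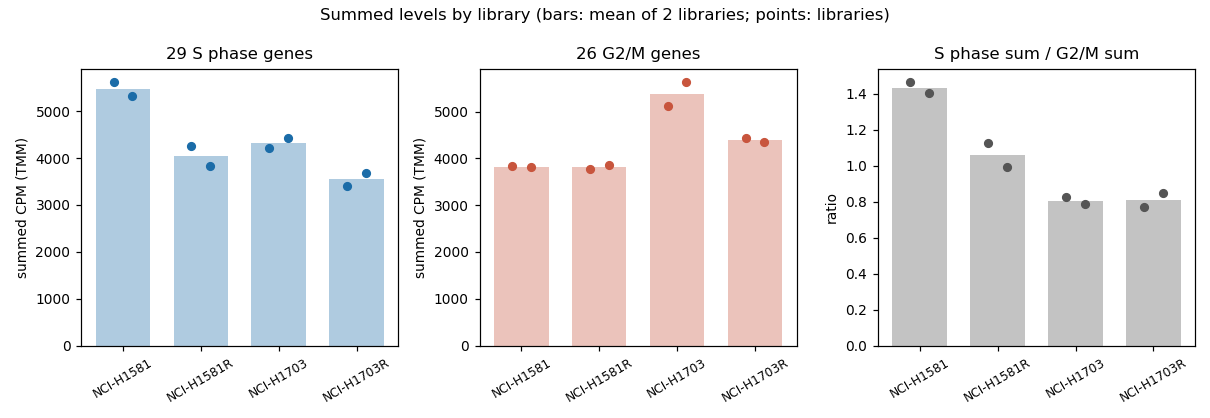
Summed CPM of the S phase genes (left) and the G2/M genes (middle) and their ratio (right), with bars from 0 at the mean of 2 libraries and a point for each library. The S phase sum is 5630 and 5333 CPM in NCI-H1581 and 4248 and 3833 CPM in NCI-H1581R, while the G2/M sums of these variants lie between 3769 and 3864 CPM.

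The 2 sensitive lines were compared to describe where each started. In NCI-H1703 against NCI-H1581, 18 G2/M genes were higher and 3 lower, and 9 S phase genes were higher and 11 lower (edgeR, adjusted p under 0.1), where 62.9% of all genes tested were called, 32.5% higher and 30.4% lower. The median log2 difference was 0.62 for the G2/M genes and -0.07 for the S phase genes, beside 0.04 over all genes tested. FOXM1 stood furthest towards NCI-H1703, with 219 and 206 CPM in NCI-H1581 and 753 and 777 CPM in NCI-H1703 (log2 difference 1.85, SE 0.09, adjusted p = 2.94e-06). CCNE2 (1.82), KIF20A (1.54), CENPF (1.49) and CENPE (1.39) followed. These were a cyclin of G1/S, a kinesin and a pair of kinetochore proteins.

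GINS1 stood furthest towards NCI-H1581, with 103 and 118 CPM there and 33.2 and 35.4 CPM in NCI-H1703 (log2 difference -1.69, SE 0.13, adjusted p = 2.26e-05). MCM6 (-1.32), RRM1 (-1.25), PCNA (-1.20) and MCM7 (-1.09) followed, all of them S phase genes. The MCM ring was not of 1 direction, since MCM3 and MCM5 were higher in NCI-H1703, with log2 differences of 0.49 (adjusted p = 0.00364) and 0.37 (adjusted p = 0.00885). Of the 8 genes of spindle motors and microtubules, 7 were higher in NCI-H1703 and none lower.

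Levels of different genes can be compared only per length, and CPM per kb of the canonical transcript was used for that. In NCI-H1581 the highest were MCM7 (386 CPM per kb), PCNA (325), TK1 (252), TYMS (224) and MYBL2 (216). In NCI-H1703 they were TYMS (272 CPM per kb), TK1 (228), CDC20 (218), FOXM1 (215) and MCM7 (181). The order within a complex was wide: of the ring, MCM7 had 386 CPM per kb in NCI-H1581, MCM2 182, MCM5 99.1, MCM3 97.1 and MCM6 85.6, while MCM4 had 6.4. MCM4 was the lowest of the ring in the other variants too, at 4.9 in NCI-H1581R, 4.55 in NCI-H1703 and 3.5 in NCI-H1703R. Whether its deposited counts are complete was not tested. In NCI-H1703 MCM3 (137 CPM per kb) and MCM5 (128) stood above MCM2 (91.9). Of the reductase, RRM1 and RRM2 had 61.7 and 66.4 CPM per kb in NCI-H1581, 44.6 and 33.4 in NCI-H1581R, 26 and 58.3 in NCI-H1703 and 20.9 and 54.6 in NCI-H1703R. CENPE was the lowest of the 55 in NCI-H1581, at 0.9 CPM per kb, and CCNE2 had the lowest mean in NCI-H1581R, at 1.2. There the replicates of CENPE were far apart (mean 1.7, SD 1.8 CPM per kb), so the order of these genes is uncertain.

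A wider list of 96 genes of the same pathways, 42 of S phase and 54 of G2/M, was counted in the same way. In NCI-H1581R, 4 of the 42 rose (ORC2, DBF4, ASF1B and E2F7) and 2 fell (GINS3 and RECQL4), with a median log2 fold change of -0.02. The 2 falls among these 42 stand beside 8 among the 29. Of the 54 G2/M genes, 4 rose (NEK2, MAD2L1, ECT2 and CDCA2) and 2 fell (CDC25B and CENPN), with a median of 0.01. These counts stand beside 7.63% of all genes tested that rose and 7.44% that fell. CDC25B, a phosphatase that activates CDK1, had 620 and 484 CPM in NCI-H1581 and 139 and 129 CPM in NCI-H1581R, a log2 fold change of -2.03 (SE 0.19, adjusted p = 0.001). E2F7, an E2F that represses transcription, rose from 7.33 and 9.89 CPM to 26.4 and 38.6 CPM, a log2 fold change of 1.92 (SE 0.28, adjusted p = 0.008). Neither gene's groups overlapped. The spindle checkpoint protein MAD2L1 (1.45), ECT2, which directs cytokinesis (1.39), GINS3 (-0.62) and CENPN (-0.60) were the others with the largest changes called.

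In NCI-H1703R, 1 of the 42 other S phase genes rose (ORC3) and 7 fell, with a median of -0.14, and 1 of the 54 other G2/M genes rose (CDC25B) and 5 fell, with a median of -0.20. Of all genes tested, 7.06% rose and 7.67% fell. With the replicate block 16 S phase and 25 G2/M genes of this list fell, where 16.7% of all genes did. POLD1, the catalytic subunit of polymerase delta, had 134 and 117 CPM in NCI-H1703 and 55.3 and 55.4 CPM in NCI-H1703R, a log2 fold change of -1.15 (SE 0.10, adjusted p = 0.003). CDC25A, a phosphatase of the G1/S border, went from 60.1 and 64.6 CPM to 28.4 and 34.3 CPM (log2 fold change -0.96, adjusted p = 0.01), and DSCC1, of a clamp loader for cohesion, had a log2 fold change of -0.64. CDC25B went the other way from NCI-H1581R, from 400 and 335 CPM to 547 and 503 CPM (log2 fold change 0.55, adjusted p = 0.046), and its change differed between the lines (interaction 2.56, SE 0.23). The change of E2F7 differed as well (interaction -2.32, SE 0.31, adjusted p = 0.003), with 26.7 and 24.4 CPM in NCI-H1703 and 18.4 and 20.1 CPM in NCI-H1703R. The interaction was also called for POLD1 (-0.886, adjusted p = 0.0201), CDC25A (-0.889, 0.0214) and DSCC1 (-1.05, 0.00963). It was called for MAD2L1 (-1.68, adjusted p = 0.0049) and ECT2 (-1.48, 0.00096) too, but not for ORC3, GINS3 or CENPN. These genes were picked for their large change in 1 line in the same libraries, which favours a called interaction. Of all genes tested, 15.4% were called for it.

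Replicates of the resistant variants stood apart for some long transcripts. In NCI-H1581R, CENPE had 3.93 CPM in replicate 1 and 25.7 CPM in replicate 2, CENPF 31.1 and 108 CPM, and MKI67 60.0 and 136 CPM. These 3 genes were the only members more than 2-fold apart in that variant, and in NCI-H1703R the same genes were apart in the other direction, CENPE with 35.1 and 17.9 CPM, CENPF with 200 and 119 CPM and MKI67 with 253 and 140 CPM. CENPF was called higher in NCI-H1581R without replicate 1 of that variant and lower without its replicate 2. Across the 55 genes the log2 ratio of replicate 2 to replicate 1 followed log2 transcript length with Pearson's r = 0.70 in NCI-H1581R, -0.64 in NCI-H1703R, 0.31 in NCI-H1581 and -0.37 in NCI-H1703, a description across genes that share their 2 libraries. A difference in the proliferation marker MKI67 was not detectable at this spread (log2 fold change -0.47, SE 0.36, in NCI-H1581R and -0.27, SE 0.27, in NCI-H1703R). The S phase genes had a median transcript length of 3121 bases and the G2/M genes of 2857 bases, with GC contents of 50.7% and 44.8%. With offsets for GC content and length, the difference of medians between the sets in NCI-H1581R went from -0.45 to -0.26. In that fit 10 S phase genes and 1 G2/M gene fell, against 10.0% of all genes tested. In NCI-H1703R the offsets left medians of -0.29 and -0.20 with 8 S phase and 5 G2/M genes lower, against 7.39% of all genes. Between the sensitive lines they gave medians of -0.16 for the S phase genes and 0.43 for the G2/M genes.

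**Figure D5:**
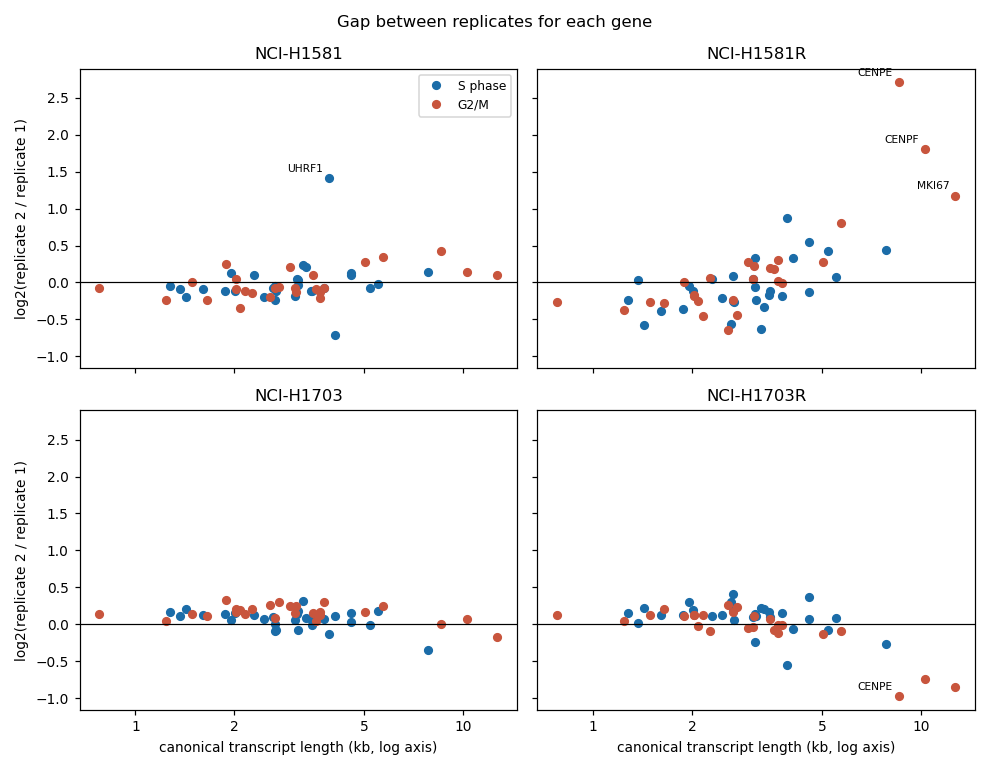
Log2 ratio of replicate 2 to replicate 1 against the length of the canonical transcript (kb, log axis) for the 55 genes in each variant, S phase in blue and G2/M in red. CENPE reaches 2.71 in NCI-H1581R and -0.97 in NCI-H1703R.

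The promoter words were set beside the changes. Among the 46 members with a promoter entry, 5 of the 23 with an E2F word and 3 of the 23 without were called lower in NCI-H1581R, with median log2 fold changes of -0.25 and 0.01. Over all genes tested that have an entry, the medians were 0.02 for the 2470 with an E2F word and 0.06 for the others, and 6.48% and 7.67% were called lower. Members with a CHR word had 1 call among 16 and a median of 0.08, and those without it 7 calls among 30 and a median of -0.15, where 7.21% of all genes with a CHR word and 7.46% of those without it were called lower. In NCI-H1703R the members with an E2F word had 5 calls and a median of -0.28, those without it 4 calls and a median of -0.20, where 9.23% and 7.95% of all genes were called lower. There the members with a CHR word had 1 call among 16 and those without it 8 among 30, where 7.35% and 8.32% of all genes were. The word and the set a gene belongs to go together, so the values by word repeat in part those of the sets.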

How the data were processed

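RNA was sequenced from 8 libraries, 2 for each of 4 variants. The authors trimmed reads with cutadapt, quantified them with Salmon on GRCh38 and deposited estimated counts for each gene without normalisation, which were here rounded to integers. The versions, the annotation and the strand setting are not given in the sources used here, so genes with overlapping exons are uncertain. Samples were grouped by their labels, and GENCODE v44 gave symbols, lengths and GC contents for 17177 of the 18203 genes tested. The members and gene lists were chosen with earlier results of these data known.

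Genes with at least 10 counts in total were fitted in edgeR 4.0.16 in R 4.3.3 (TMM, quasi-likelihood test, two-sided), per line for the change with resistance and over all 8 libraries for the interaction. A gene was called at a Benjamini-Hochberg adjusted p under 0.1. The SE is the absolute log2 fold change divided by the square root of F. The model was tested on simulated data, with 50 genes changed by each fold. In the NCI-H1581R comparison it called 0 of those changed 1.5-fold and 22 of those changed 2-fold. In the NCI-H1703R comparison it called 10 and 44, and for the interaction 1 and 10. In the simulation small changes were thus often missed, and more often in NCI-H1581R than in NCI-H1703R. It left 18003 of the 18203 genes unchanged, while 15.1% and 14.7% of all genes were called in the data of these lines. An adjusted p depends on how many genes change, so the recovered shares do not give those of the data.

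Only the fits with a replicate block took same-numbered libraries as pairs, because the growth protocol describes the second replicate as a repeat of the experiment. The fits behind the main counts did not pair these libraries. Over 9828 genes their deviations correlated with r = 0.221 between NCI-H1581 and its resistant variant and 0.431 between NCI-H1703 and its own, and with -0.441 to 0.064 across lines. Replicates differed by more than sampling noise (chi-square per degree of freedom 24.6 to 103). Alternatives were DESeq2 1.42.0, RLE scaling, other filters, legacy quasi-dispersions, a threshold of 0.05, a single fit of 8 libraries, the replicate block, spline offsets for GC content and length, and leaving out each replicate.

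Named in each line were, within S phase and within G2/M, the 4 called members with the largest change each way, members called in both lines, the 6 with the smallest interaction p, the 5 highest in each sensitive line, and the 3 other pathway genes with the largest changes called each way. Further members were named by role after their values were seen. Promoter sequences came from RefSeq.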

Additional observations from a re-analysis of the deposited data

Results flagged for a closer look

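The change with resistance differed between the lines for KIF20A, by -0.667 on the log2 scale (NCI-H1703R against NCI-H1703 minus NCI-H1581R against NCI-H1581), in edgeR's interaction test (adjusted p = 0.0705). It differed for CCNB1 by -0.592 in the same test (adjusted p = 0.0729). Both estimates kept their sign when each replicate was left out (-0.79 to -0.51 for KIF20A and -0.67 to -0.48 for CCNB1), but neither was called without any 1 replicate of NCI-H1703, NCI-H1703R or NCI-H1581.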

How the results depend on the processing

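None of the genes named by the rule for named genes changed its direction under any alternative, while some members named by role did, among them MCM10 and CENPF in NCI-H1581R. Of 470 values of genes named by the rule, other than those that leave out a replicate, 418 kept their side of the threshold, 39 lost the call and 13 gained it. On leaving out a replicate, 132 of 212 kept it, 76 lost the call and 4 gained it. At a threshold of 0.05, members called were 2 in NCI-H1581R (2 S phase and 0 G2/M), 6 in NCI-H1703R (4 S phase and 2 G2/M) and 0 for the difference between the lines, where 9.85%, 9.01% and 10.9% of all genes were called. DESeq2 gave 21 in NCI-H1703R (12 and 9) and 7 for the difference, where 16.7% and 19.5% of all genes were called. The fit of all 8 libraries gave 15 in NCI-H1581R (14 S phase lower) and 7 in NCI-H1703R (4 S phase lower), where 24.9% and 9.5% of all genes were called. At least 10 counts in every library gave 23 in NCI-H1703R (14 and 9) and 6 for the difference, where 24.3% and 23.3% of all genes were called. RLE scaling gave 0 for the difference, where 15.0% of all genes were called. No low-count filter gave 0 for the difference and 0 G2/M genes in NCI-H1581R, where 11.6% and 12.7% of all genes were called.

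The replicate block, which pairs same-numbered libraries, gave 35 in NCI-H1703R (19 S phase and 14 G2/M lower), 1 for the difference (6 with a separate block in each line), where 34.9%, 13.9% and 18.9% of all genes were called. It also moved the genes lower in both lines from 1 to 7 and the falls of the wider list in NCI-H1703R from 7 to 16 (S phase) and from 5 to 25 (G2/M). Together with GC and length offsets it gave 35 in NCI-H1703R (19 and 14 lower), where 35.8% of all genes were called and 15.9% were lower. In NCI-H1581R it gave 2 G2/M genes lower, against 12.1% of all genes, and a difference of medians between the sets of -0.267. The offsets alone gave -0.257 there and 6 for the difference between the lines, over all genes 1893 higher and 1418 lower against 1262 and 1541 without them. The cause was not tested.

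Leaving out a replicate gave 0 to 22 members in NCI-H1581R (S phase lower 0 to 14, G2/M lower 0 to 3), 0 to 12 in NCI-H1703R (0 to 8 and 0 to 4) and 0 to 12 for the difference. These fits leave a variant with 1 library, which is assumed to vary like the others. With 2 replicates a group and 2 residual degrees of freedom within a line, a gene that was not called is not shown to be unchanged.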
